A study of Mus musculus with 4 samples.

Results

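The ADAMTS proteases described here are 10 mouse genes, Adamts1, Adamts2, Adamts4, Adamts5, Adamts6, Adamts7, Adamts9, Adamts10, Adamts12 and Adamts15, taken by symbol from a table of 20325 genes. ADAMTS proteins (a disintegrin and metalloproteinase with thrombospondin motifs) are secreted zinc enzymes that cut proteins of the extracellular matrix. They are made as inactive precursors, lose a propeptide to furin-type proteases, and carry thrombospondin repeats that hold them in the matrix. In cartilage and other connective tissue they are known for cutting aggrecan and versican, for trimming procollagens and for work on fibrillin microfibrils.

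RNA was sequenced from C3H10T1/2 cells, a multipotent mesenchymal line from C3H mouse embryos, at passage 10 to 15 in DMEM with 10% fetal bovine serum. The WT group (n = 2 libraries) stably expressed FLAG-HA-tagged histone H3.3 of wild type sequence. The K36M group (n = 2) stably expressed the same tagged histone with lysine 36 replaced by methionine, a substitution that inhibits H3K36 methyltransferases. Both groups therefore carried a transgene beside their own H3.3 genes. The sources used here do not say whether each group was a clone or a pool, or what drove the transgene. Nothing in the labels ties the replicates to separate cultures, so the p-values rest on a spread between libraries that may be technical.

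The proteases share the zinc-binding stretch of their catalytic domain, and 6 of these stretches are shown because the genes form the 3 pairs whose members are compared below. Each is 36 bases of coding sequence, 5′ to 3′, from GENCODE M21 transcripts. Capitals mark the codons of the 3 zinc-binding histidines and of the catalytic glutamate.
Adamts1: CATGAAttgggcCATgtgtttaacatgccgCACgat
Adamts5: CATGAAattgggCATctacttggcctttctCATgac
Adamts7: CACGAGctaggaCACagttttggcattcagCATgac
Adamts12: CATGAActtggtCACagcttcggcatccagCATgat
Adamts6: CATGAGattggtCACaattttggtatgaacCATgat
Adamts10: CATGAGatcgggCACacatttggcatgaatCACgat

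A search for this motif found 1 match in the coding sequence of each of the 10 members. The codon between the second and the third zinc-binding histidine that is usually glycine in metalloproteinases encoded asparagine in Adamts1, Adamts4, Adamts9 and Adamts15, all of them proteoglycanases, and glycine in the other members, Adamts5 included. Adamts7 and Adamts12 had 28 of the 36 bases in common, Adamts6 and Adamts10 had 29, and Adamts1 and Adamts5 had 22. The longest identical run between the coding transcripts of any of the 45 pairs was 46 bases, between Adamts12 and Adamts10, and it was 24 bases for Adamts7 with Adamts12.

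Library totals ranged from 23343297 to 56041798 expected counts (RSEM estimates of reads per gene, which need not be whole), and K36M libraries were on average 1.85 times as deep as WT libraries. Values are CPM, a gene's expected count scaled to a common library size by TMM (trimmed mean of M-values), and are compared between groups for the same gene. A gene was called changed at an adjusted p under 0.05 in edgeR's quasi-likelihood test with Benjamini-Hochberg adjustment over all 13162 genes tested. This rule called 75.6% of all tested genes, 38.5% as higher and 37.1% as lower in K36M, so a call by itself sets no member apart. All 10 markers of mesenchymal cells were detected in every library, and their summed level was 26540 to 26999 CPM in WT and 22588 to 24077 CPM in K36M. That sum rests mainly on Col1a1, Col1a2 and Vim (WT means 7748, 8583 and 7638 CPM). Of the 10 markers 4 were called higher and 4 lower. Thy1 rose 11.2-fold and Twist2 2.51-fold, while Col1a2 fell 1.72-fold and Vim 1.46-fold. Of 8 cartilage markers 7 were tested and called lower, of which Acan and Matn1 passed the filter on low counts only through WT, so that their inclusion was tied to a difference. The summed level of the list went from 5301 to 5313 CPM in WT to 444 to 459 CPM in K36M. Summed blood and macrophage markers stood at 7.02 to 7.77 CPM in WT and 40.4 to 41.7 CPM in K36M, epithelial markers at 11.0 to 12.1 and 24.3 to 25.8 CPM, and endothelial markers at 38.2 to 39.6 and 16.6 to 18.6 CPM. The sums of these last 3 lists rest on a few genes, which in the epithelial and endothelial lists did not all go one way. In the blood and macrophage list 4 of the 5 tested genes were called higher and 0 lower. There Hba-a1 rose from 0.171 ± 0.127 to 26.0 ± 0.994 CPM, Lyz2 3.56-fold, Csf1r 2.58-fold and Cd14 1.57-fold. In the epithelial list Cdh1 rose 4.04-fold and Krt8 5.97-fold while Krt14 fell 7.44-fold, and in the endothelial list Tek fell from 28.1 ± 1.13 to 4.73 ± 0.213 CPM while Cdh5 rose 3.22-fold. Hba-a1, Csf1r and Krt8 passed the filter only through K36M. Of the defining markers Epcam, Cldn4 and Hbb-b1 were at 0 in all libraries, and Ptprc, Emr1, Krt18 and Kdr at 0 in both WT libraries. In the K36M libraries, which were deeper, Ptprc had 8 and 7 counts, Emr1 1 and 3, Krt18 8 and 5, and Kdr 3 and 2. The part of these marker differences in the results below was not tested. In bulk RNA, fewer cells of a type and less RNA per cell cannot be told apart.

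The family did not move as 1 block. Of the 10 members 9 passed the filter on low counts. Of those, 4 rose (Adamts6, Adamts7, Adamts9 and Adamts10), 4 fell (Adamts1, Adamts4, Adamts5 and Adamts12), and Adamts2 did not pass the test. That is 88.9% called, beside 75.6% of all tested genes, and a median log2 fold change of -0.03, beside 0.00 for all tested genes. At least 2-fold calls were 2 higher (Adamts6 and Adamts9) and 2 lower (Adamts1 and Adamts12), while 12.7% of all tested genes were called at least 2-fold higher and 8.69% at least 2-fold lower. Adamts9 passed the filter only through its K36M libraries, so its inclusion was itself tied to a difference.

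**Figure D1:**
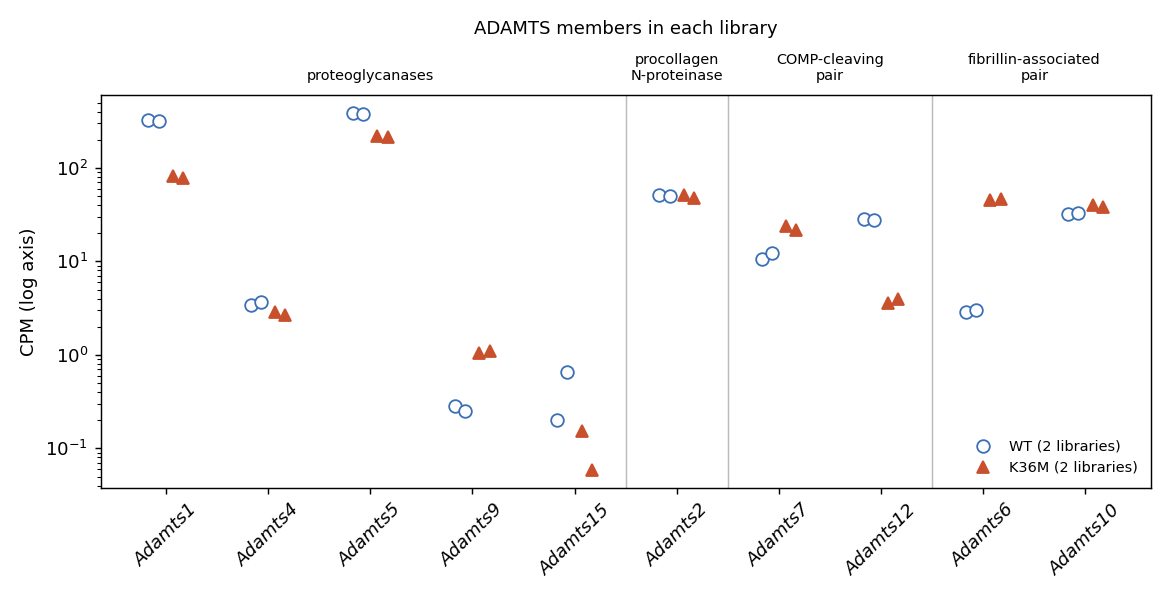
CPM (log axis) of each of the 10 members in the 2 WT libraries (open circles) and the 2 K36M libraries (triangles), grouped by role. The groups of Adamts2 overlap, and Adamts15 was too low for the test. How often groups separate over all genes was not counted. Adamts6 goes from about the level of Adamts4 to 45.1 and 46.2 CPM, and Adamts12 falls to 3.61 and 3.94 CPM.

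Among the proteoglycanases, which cut aggrecan and versican, the members with most reads fell. Adamts1, a protease of versican and aggrecan that is also needed for ovulation, had 325 and 319 CPM in WT against 81.4 and 78.9 CPM in K36M. Both K36M libraries lay far below both WT libraries, a 4.01-fold fall (log2 fold change -2.00, SE 0.040, adjusted p = 1.5e-18).

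Adamts5, the main aggrecanase of mouse cartilage, had 386 and 380 CPM in WT against 217 and 214 CPM in K36M. Its groups were also separated, but its fall was 1.78-fold, with a 95% interval of 1.69-fold to 1.87-fold (adjusted p = 2e-13). Adamts1 and Adamts5 are next to each other on chromosome 16, with no protein-coding gene between them in the RefSeq annotation. The ratio of Adamts1 to Adamts5 counts, which does not depend on how libraries are scaled, was 0.842 and 0.839 in WT and 0.376 and 0.369 in K36M. Thus the neighbours fell by different amounts, and the ratio was 2.26-fold lower in K36M.

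Adamts4, the other classical aggrecanase, was a minor transcript. It had 84 and 85 counts in WT and 164 and 92 in the deeper K36M libraries, or 3.39 and 3.69 CPM against 2.89 and 2.65 CPM. It fell 1.27-fold, with an interval of 1.02-fold to 1.58-fold (adjusted p = 0.0451). This call was not kept when any 1 library was left out (adjusted p = 0.0689 without WT replicate 1, 0.206 without WT replicate 2, 0.0535 without K36M replicate 1 and 0.123 without K36M replicate 2).

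Adamts9, a versican protease with a long row of thrombospondin repeats, went the other way at a low level. It had 6.98 and 5.78 expected counts in WT and 58.84 and 38.34 in K36M, which is 0.282 and 0.251 CPM against 1.04 and 1.10 CPM. The rise was 3.86-fold, with a wide interval of 2.33-fold to 6.41-fold (adjusted p = 5.88e-05). On the annotation of GENCODE M21, exons of Adamts9 overlap those of A730049H05Rik and Gm15737 on the other strand, over 166 and 424 bases, and the sources used here do not say whether counting used strand.

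Adamts15, a versican and aggrecan protease, was too low for the test. Its expected counts were 5 and 15.05 in WT and 8.66 and 2.04 in K36M, or 0.202, 0.654, 0.152 and 0.0587 CPM. The WT libraries differed from each other by more than WT replicate 1 differed from K36M replicate 1. Only WT replicate 2 reached the filter's minimum, so wherever Adamts15 passed the filter its inclusion was tied to a difference. With no filter on low counts it was called lower (log2 fold change -1.79, adjusted p = 0.00663). Its log2 fold change was -2.42 without WT replicate 1, -2.77 without K36M replicate 1 and -1.38 without K36M replicate 2. Without WT replicate 2 it was too low for the test.

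The procollagen N-proteinase Adamts2, which removes the amino-terminal propeptide of fibrillar procollagens, overlapped between groups. Its WT libraries had 51.0 and 49.9 CPM, its K36M libraries 50.7 and 47.8 CPM. Its log2 fold change was -0.03 (SE 0.049, adjusted p = 0.561). The interval of the K36M to WT ratio, 0.910 to 1.05, leaves room for a small change in either direction and none as large as those of Adamts1 or Adamts12. Under the authors' scaling factors it was called slightly lower (log2 fold change -0.12, adjusted p = 0.0339).

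Adamts7 and Adamts12, a pair with a mucin-like domain that cuts cartilage oligomeric matrix protein (COMP), went in opposite directions. Adamts7 had 10.5 and 12.3 CPM in WT against 23.7 and 21.4 CPM in K36M. Both K36M libraries were above both WT libraries, a rise of 1.99-fold (log2 fold change 0.99, SE 0.087, adjusted p = 6.81e-09). Adamts12 had 28.5 and 27.6 CPM in WT against 3.61 and 3.94 CPM in K36M. Its fall of 7.49-fold, with an interval of 6.57-fold to 8.54-fold, was the largest fall among the tested members (adjusted p = 1.13e-15), and 2.04% of all tested genes had a lower log2 fold change. Within libraries, Adamts7 had 0.369 and 0.443 times the counts of Adamts12 in WT and 6.55 and 5.43 times in K36M, a 14.7-fold shift of the ratio. Exons of Adamts7 overlap those of Tbc1d2b, on the other strand, over 122 bases.

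Adamts6 and Adamts10, a pair tied to fibrillin microfibrils, both rose, by very different amounts. Adamts6 had 70.57 and 70 expected counts in WT and 2561.57 and 1604.51 in K36M, which is 2.85 and 3.04 CPM against 45.1 and 46.2 CPM. The libraries of each group were close together and the groups far apart. Its 15.4-fold rise, with an interval of 13.7-fold to 17.5-fold, was the largest change among the tested members in either direction (log2 fold change 3.95, SE 0.085, adjusted p = 4.83e-18). At least 10-fold rises were called for 4.26% of all tested genes. Adamts6 is the only member in the authors' deposited table of 594 genes, where its fold is 14.5.

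Adamts10, in which inherited defects cause Weill-Marchesani syndrome, had 32.0 and 32.9 CPM in WT against 40.0 and 38.1 CPM in K36M. The groups did not overlap, and the rise was 1.20-fold (log2 fold change 0.27, SE 0.053, adjusted p = 0.000165). Under the authors' factors its log2 fold change was 0.18. The median absolute log2 fold change of all tested genes was larger, at 0.38. Counts of Adamts6 were 0.0889 and 0.0924 times those of Adamts10 in the WT libraries and 1.13 and 1.21 times in the K36M libraries. The minor gene of the pair in WT thus had more counts than its relative in K36M, a 12.9-fold shift of the ratio. These counts are not divided by transcript length. Per kilobase of the longest transcript, Adamts10 stayed above Adamts6 in K36M (9.65 against 7.04 CPM). Per kilobase of all exons they stood at 6.51 and 6.86 CPM.

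**Figure D2:**
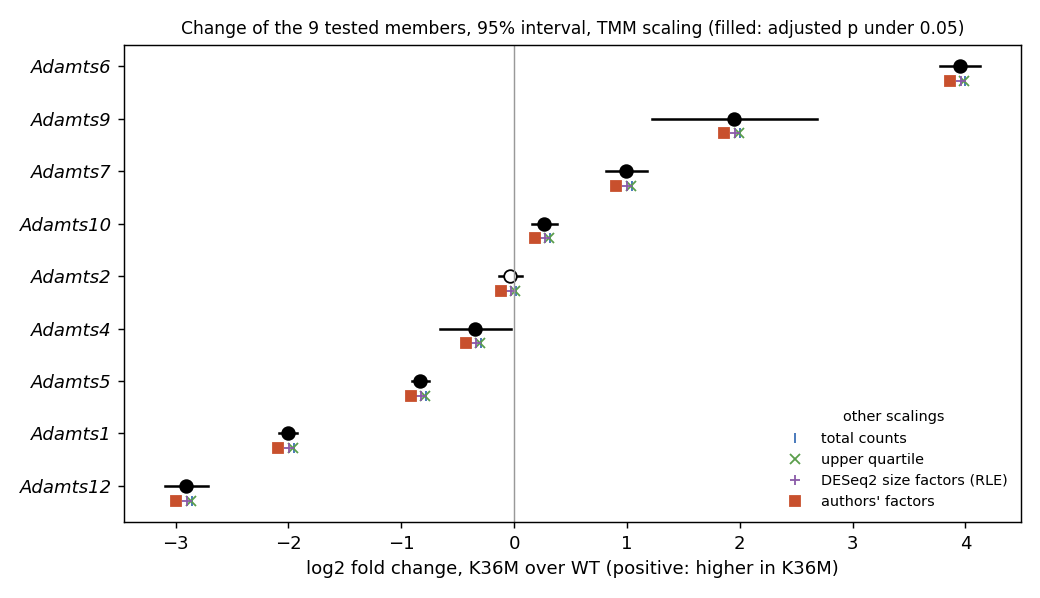
log2 fold change of the 9 tested members, K36M over WT, with 95% intervals under TMM scaling; filled circles have an adjusted p under 0.05, and small marks give the value under 4 other scalings. Adamts6 lies at 3.95 and Adamts12 at -2.91; only Adamts2 lies on both sides of 0 depending on the scaling.

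**Figure D3:**
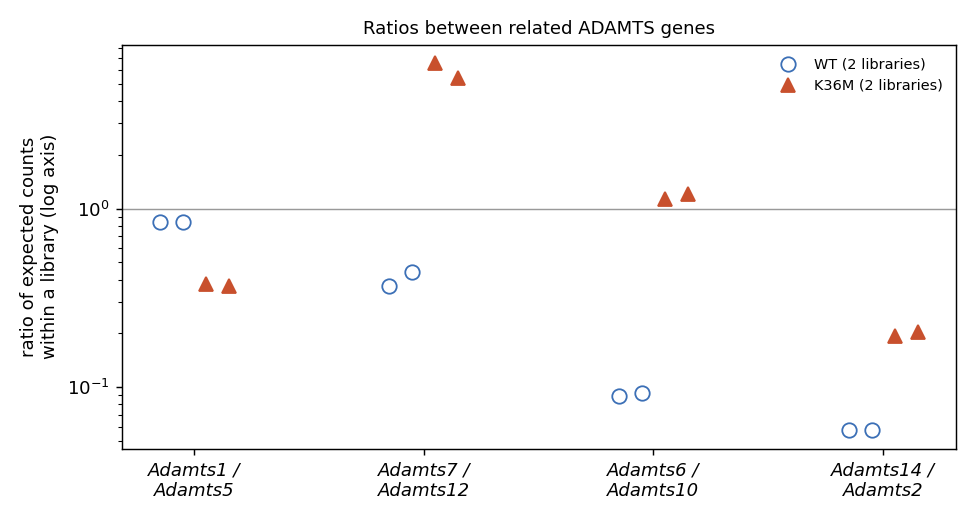
Ratio of expected counts of 2 related genes within each library (log axis), WT open circles and K36M triangles; the line marks equal counts. Adamts7 over Adamts12 and Adamts6 over Adamts10 cross the line between the groups, while Adamts1 over Adamts5 falls from 0.842 and 0.839 to 0.376 and 0.369. Counts are not divided by transcript length.

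The make-up of the family changed with these shifts. The 10 members together had 839 and 830 CPM in the WT libraries and 465 and 454 CPM in the K36M libraries, a 1.82-fold lower sum. Adamts1 and Adamts5 together took 84.6% and 84.3% of the family's counts in WT and 64.1% and 64.5% in K36M. The share of Adamts1 went from 38.7% and 38.5% to 17.5% and 17.4%, while that of Adamts5 stayed between 45.8% and 47.1% in all 4 libraries. Adamts6 took 0.339% and 0.366% of the counts in WT and 9.69% and 10.2% in K36M. Shares are of counts, so long transcripts weigh more in them.

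**Figure D4:**
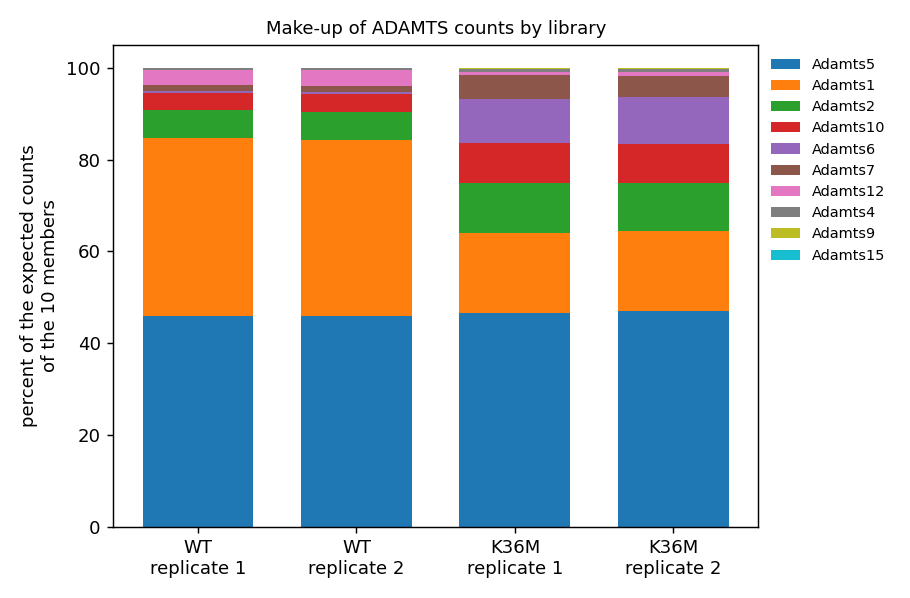
Percent of the expected counts of the 10 members that fell on each gene, 1 bar per library. Adamts5 keeps 45.8% to 47.1% in every bar, the Adamts1 band shrinks from 38.7% and 38.5% to 17.5% and 17.4%, and Adamts6 widens to 9.69% and 10.2% in the K36M bars.

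To order the members by level, CPM was divided by the length of the longest coding transcript in GENCODE M21, since the sources used here do not give the authors' lengths, so these levels are approximate. In WT, Adamts1 was first with 65.9 ± 0.778 CPM per kilobase (SD, n = 2), before Adamts5 with 35.5 ± 0.350, Adamts10 with 8.03 ± 0.156, Adamts2 with 6.95 ± 0.109, Adamts12 with 3.27 ± 0.0738 and Adamts7 with 2.12 ± 0.226. Adamts4 (0.807 ± 0.0490 CPM per kilobase) and Adamts6 (0.454 ± 0.0212) were lower, and Adamts15 and Adamts9, last in WT, overlapped. In K36M, Adamts5 led with 20.0 ± 0.179 CPM per kilobase, before Adamts1 with 16.4 ± 0.354 and Adamts10 with 9.65 ± 0.337. Adamts6 (7.04 ± 0.117 CPM per kilobase) and Adamts2 (6.78 ± 0.286) came next and did not differ beyond their spread. Adamts7 had 4.19 ± 0.295, Adamts4 0.631 ± 0.0386, and Adamts12, now behind Adamts4, 0.440 ± 0.0275 CPM per kilobase. Adamts9 had 0.133 ± 0.00595 and Adamts15 0.0178 ± 0.0112. With the length of all annotated exons in place of the longest transcript, Adamts10 fell behind Adamts2 in WT (5.42 against 6.95), and in K36M Adamts6, Adamts2 and Adamts10 stood at 6.86, 6.78 and 6.51, with neighbours overlapping.

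Of the 9 other ADAMTS genes in the table only 2 had enough counts for the test, and 1 of them rose. Adamts14, like Adamts2 a procollagen N-proteinase, rose from 2.89 ± 0.0370 to 9.76 ± 0.0641 CPM (3.38-fold, adjusted p = 1.38e-10). Its counts were 0.0572 and 0.0574 times those of Adamts2 in WT and 0.193 and 0.203 times in K36M. Adamts16, the other tested gene, was at 3.02 ± 0.0986 and 2.71 ± 0.0736 CPM (adjusted p = 0.364). Adamts3, the N-proteinase of type II procollagen, and Adamts19 had 0 counts in every library, which allows up to 3 counts, or 0.121, 0.130, 0.0528 and 0.0863 CPM in the order WT replicates 1 and 2 and K36M replicates 1 and 2. Adamts18 had 0 counts in both WT libraries and 9 in each K36M library. Adamts17 had 8.36 and 10.44 counts in WT and 5.96 and 6.64 in K36M, and Adamts8, Adamts13 and Adamts20 had at most 3 counts in any library.

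The ADAMTS-like genes, which encode relatives without the protease domain that bind the matrix, went both ways, 2 higher and 4 lower of the 6 tested. The shares over all tested genes were 38.5% higher and 37.1% lower. Adamtsl1 fell 4.91-fold, from 10.9 ± 1.20 to 2.23 ± 0.217 CPM, and Adamtsl4, which binds fibrillin, fell 1.99-fold, from 149 ± 1.22 to 74.8 ± 2.95 CPM. Adamtsl3 fell 1.22-fold to 321 ± 0.352 CPM. Adamtsl5 fell 1.11-fold (adjusted p = 0.0257). That call was lost without WT replicate 1, WT replicate 2 or K36M replicate 2, and at a mean of at least 5 CPM (0.0528). It was also lost under upper quartile scaling (0.0954), with total counts (0.122) and with the DESeq2 Wald test (0.137). Thsd4, which encodes ADAMTS-like 6 and takes part in fibrillin assembly, rose 5.85-fold to 2.69 ± 0.209 CPM. Adamtsl2, the gene of geleophysic dysplasia, passed the filter on low counts only through K36M, so its inclusion was tied to a difference. It had 0 and 1 counts in WT and 92 and 65 in K36M. The counting interval of that ratio ran from 14.5 to 3259 (95%, Clopper-Pearson on the group counts), and covers counting error only. Papln, the papilin gene, was not tested, with 2 and 0 counts in WT and 7 and 9 in K36M.

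Of the substrate genes tested, proteoglycans and fibre proteins together, most fell. Acan, the aggrecan gene, had 436 and 400 counts in WT and 4 and 0 in K36M, a fitted 370-fold fall (adjusted p = 1.97e-16) whose size depends on the few K36M counts. Vcan, the versican gene, fell 1.94-fold, from 520 ± 7.69 to 269 ± 9.01 CPM, and Ncan, the neurocan gene, was higher by 0.81 on the log2 scale without passing the test (adjusted p = 0.0593), and was called higher under upper quartile scaling (0.0479) and with total counts (0.0466). Of these 3 tested proteoglycan genes 2 fell and 0 rose, and the median log2 fold change was -0.95. Of 8 collagen, COMP and fibrillin genes 7 fell and 1 rose (median -1.36). Beside these counts, 37.1% of all tested genes were called lower and 38.5% higher. Ncan passed the low-count filter only through K36M, and Acan only through WT. Comp fell 7.21-fold, from 12.2 ± 1.02 to 1.69 ± 0.0507 CPM, which stands beside the 7.49-fold fall of Adamts12 and the 1.99-fold rise of Adamts7. Fbn2, the fibrillin-2 gene, fell 9.55-fold from 224 ± 0.947 to 23.4 ± 0.0522 CPM and Fbn1 1.61-fold, while Adamts6 and Adamts10 rose. Among the procollagen genes Col2a1 fell 11.6-fold, Col3a1 2.88-fold, Col5a1 2.30-fold and Col1a2 1.72-fold, and Col1a1 rose 1.32-fold.

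Among genes that activate, modify or clear ADAMTS proteins, 3 of the 7 tested fell and 0 rose (median log2 fold change -0.09). Over all tested genes 37.1% were called lower and 38.5% higher. Furin, which removes the propeptide, stood at 115 ± 1.52 and 108 ± 4.20 CPM (adjusted p = 0.0806), and Lrp1, the receptor that clears Adamts4 and Adamts5 protein from the matrix, at 2484 ± 42.5 and 2546 ± 209 CPM (adjusted p = 0.532). Pofut2 and B3galtl, whose enzymes add the sugars that thrombospondin repeats need for secretion, fell 1.18-fold and 1.29-fold. Sdc4, which encodes the surface proteoglycan syndecan-4, fell 1.71-fold from 225 ± 5.63 to 132 ± 2.99 CPM. Pcsk6 (adjusted p = 0.218) and Pcsk5 (0.133), which encode furin-type proteases, did not pass the test. Furin and Pcsk6 were called lower under the authors' factors (adjusted p = 0.00125 and 0.00956) and without K36M replicate 1 (0.0122 and 0.00603). Pcsk5 was called higher without WT replicate 1 (0.0472) or K36M replicate 2 (0.0441), and Lrp1 without K36M replicate 2 (0.000455).

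The inhibitors were divided, with 1 of 3 tested higher and 2 lower, beside 38.5% higher and 37.1% lower of all tested genes. Timp3, the inhibitor of the aggrecanases, fell from 4037 ± 53.2 to 1316 ± 13.3 CPM. Set against it within libraries, Adamts5 had 0.0964 and 0.0934 times the counts of Timp3 in WT and 0.166 and 0.161 times in K36M, so Adamts5 fell less than Timp3 (a 1.72-fold higher ratio). Adamts1 had 0.0812 and 0.0784 times the counts of Timp3 in WT and 0.0623 and 0.0596 times in K36M, and so fell more (a 1.31-fold lower ratio). Timp1 rose 1.44-fold and Timp2 was lower by a log2 fold change of -0.21 (adjusted p = 0.000331). Timp4 had 1 count in each WT library and 0 in both K36M libraries, at or under the floor of 3 counts in both groups.

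**Figure D5:**
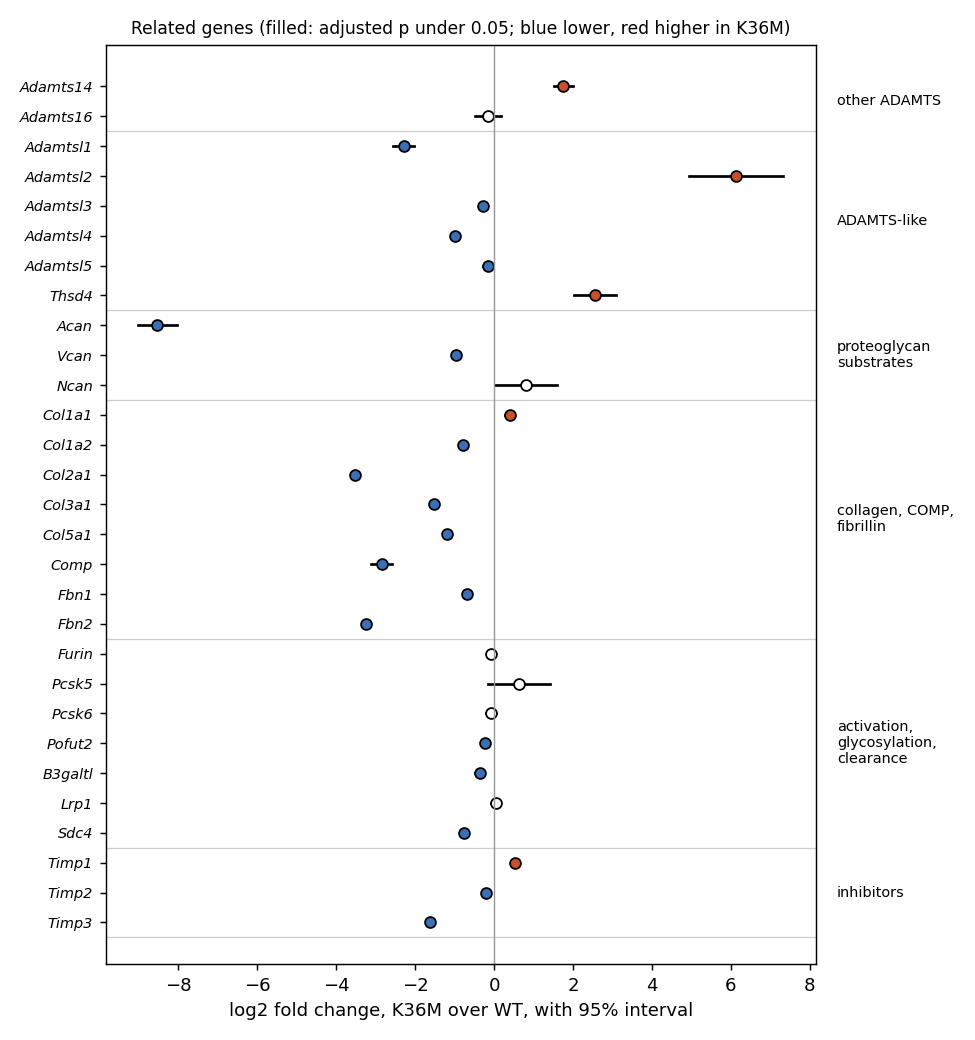
log2 fold change, K36M over WT, with 95% intervals for the tested genes of the related lists; filled points have an adjusted p under 0.05. Acan, Col2a1, Fbn2 and Comp lie far to the left, and the fitted value of Adamtsl2, with 1 count in WT, depends on the prior count of the fit and is no bound.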

How the data were processed

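The authors deposited RSEM expected counts per gene symbol for each library, used by them for EBSeq per the file headers; the submitters' processing notes name Bowtie 1.0.0, RSEM 1.2.12 and mouse build mm9. A second table deposited by the authors gives log2 values of 594 genes, recomputed here as log2(count × library factor + 1), and a linear fold, a ratio of K36M over WT. All 594 have a fold over 10 in either direction in that table.

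Here expected counts were rounded and fitted with edgeR 4.0.16 (R 4.3.3): filterByExpr (minimum count 10), TMM, quasi-likelihood F test without covariates, 2 residual and 15.7 prior degrees of freedom, Benjamini-Hochberg over 13162 genes. The standard error is the log2 fold change divided by the square root of F, and 95% intervals follow from it. Alternatives used other scalings, DESeq2 1.42.0, limma-voom (limma 3.58.1), other filters, a replicate block and each library left out. Libraries of 1 group differed on average by more than counting error (chi-square per gene averaged 3.56 for WT, 7.04 for K36M). This does not tell separate cultures from separate preparations of the same RNA.

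Lengths, exon overlaps and motif sequences came from GENCODE M21 and gene order from RefSeq, both on GRCm38; all 10 members matched by symbol. The files give no coordinates, so none are printed. Members and gene lists were chosen with earlier results of these data known; all members, and any gene of the related lists, could be named. Floors and counting intervals take in counting error alone, as no molecular identifiers are mentioned. Some values of genes beside the members are not reported here.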

Additional observations from a re-analysis of the deposited data

How the results depend on the processing

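The 4 members called higher were 4 under every alternative run except a mean of at least 5 CPM, which removes Adamts9 and leaves 3. Members called lower numbered 3 to 5 (3 or 4 when each library was left out in turn). Adamts4 moved out of this count whenever a library was left out, at a mean of at least 5 CPM, and with adjusted p = 0.0739 under upper quartile scaling, 0.0839 with total counts, 0.226 with the DESeq2 Wald test and 0.06 with limma-voom. Adamts2 moved in under the authors' factors, and Adamts15 with no low-count filter. Adamts15 also moved in without WT replicate 1 and without K36M replicate 1, where it passed the filter only through WT replicate 2. Over all genes the calls were 5070 higher and 4879 lower, and 4360 higher and 5709 lower under the authors' factors, which put the median log2 fold change of all genes at -0.08. The log2 fold change of Adamts2 was 0.0087 under upper quartile scaling, 0.018 with total counts, and -0.077 to 0.0090 (the latter without K36M replicate 2) when each library was left out, against -0.03. That of Lrp1 was -0.050 under the authors' factors and -0.048 without K36M replicate 1, against 0.04, and 0.12 (adjusted p = 0.000455) without K36M replicate 2. With the replicate number as a block, 4 members were called higher and 4 lower. The labels tie same-numbered libraries only by a number. Their deviations from the group means correlated at 0.0017 over all tested genes, and whether they share a batch was not tested. With 1 library left out, the lone library of its group is assumed to vary like the other group. The cause of these differences was not tested. Depth limits Adamts15, Adamts9 and the genes with a few counts.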

Other observations

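The genes beside the members, as RefSeq orders protein-coding genes, were looked up after the values of the members were seen. Next to Adamts6, which rose 15.4-fold, Cenpk had a log2 fold change of 0.43 (adjusted p = 0.000154, edgeR) and Cwc27 one of -0.03 (adjusted p = 0.685). Next to Adamts12, Tars had a log2 fold change of 0.45 (adjusted p = 8.4e-09), and Rxfp3 had 44 counts over both WT libraries and 2.91 over both K36M libraries, so it passed the low-count filter through WT alone. N6amt1, on the side of Adamts5 away from Adamts1, had a log2 fold change of -0.42 (adjusted p = 2.34e-05). Cyyr1, on the side of Adamts1 away from Adamts5, had 1 count over both WT libraries and 1 over both K36M libraries. Adamts7 lies between Morf4l1 (log2 fold change -0.44) and Tbc1d2b (0.39), and Adamts2, which did not pass the test, between Rufy1 (0.73) and Zfp354c (-1.52). Neighbours of Adamts4, Adamts9, Adamts10 and Adamts15 are not listed here. These are descriptions of single neighbours, in 2 libraries per group, and 75.6% of all tested genes were called changed.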
